A study of Anolis carolinensis with 2 samples.

Results

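Among the gene models of the green anole, Anolis carolinensis, 2256 were unspliced and of the size of small RNAs, and few of them had a value above 0 in 2 RNA-seq libraries of whole embryos. They were chosen from the deposited tables by structure and position alone, out of 22232 annotated transcripts. Each was the only gene and the only transcript of its locus, its genomic span equalled its length (a single exon), and its length lay from 50 to 200 bases. Models on the linkage groups (sequence names starting with LG) and on the abundant contig AAWZ02037236 were left out. Only 31 of the 2256 models had a value above 0 in either library.

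Both samples were whole embryos of this lizard, collected within a day of egg laying. Their stages, 28 and 38 somite pairs, are ones that the series sets beside mouse embryos of 9.5 and 10.5 days. A mirVana kit served to isolate total RNA, and the NuGEN Ovation RNA-Seq kit to prepare the libraries. Neither a treatment, a genotype nor the sex of the embryos is given in the labels, and each stage was 1 library, so stage, embryo and library cannot be told apart and no test between stages was possible. The depth was 13859403 mapped fragments at 28 somite pairs and 12908618 at 38, as recovered from the values. Of these, 52.1% and 43.4% lay in transcripts with a value above 0.

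Small RNAs that are neither spliced nor translated include 5S ribosomal RNA, a component of the large ribosomal subunit, and the small nuclear RNAs of the spliceosome, which recognise splice sites. They also include small nucleolar RNAs, which guide chemical changes on ribosomal RNA, and the hairpin precursors of microRNAs, which repress messenger RNAs. In vertebrates, 5S ribosomal RNA and small nuclear RNAs often come from tandem repeats and leave many scattered pseudogene copies. Many small nucleolar RNAs and microRNAs lie inside introns of other genes, and a model that shares a locus with another gene is outside the 2256. The same size range can hold short protein-coding fragments of an annotation. The files give no RNA class, and 0 of the identifiers matched the RefSeq gene table of the rAnoCar3.1 assembly. The models are therefore described by exact length and position on AnoCar2.0 (1-based), and no class is given to any of them. The labelled tissue could not be checked against marker genes for the same reason.

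Values are given in FPKM, that is, fragments for each kilobase of effective length, scaled to the mapped total. A model is called listed where its FPKM was above 0. At 28 somite pairs 25 of the 2256 models were listed (1.11%, exact 95% interval 0.72 to 1.63). At 38 somite pairs 23 were listed (1.02%, 0.65 to 1.53). Of these, 17 were listed in both libraries, which is 68.0% of the list at 28 and 73.9% of the list at 38. Another 8 were listed only at 28 somite pairs and 6 only at 38. Over all transcripts, 53.1% were listed at 28 and 53.7% at 38. Those listed in both libraries were 91.8% of the list at 28 and 90.7% of the list at 38. The overlaps were not compared at equal fragment numbers. Intervals on shares, here and below, treat the models as independent draws, which copies of a repeated model may not be. Intervals on fragment ratios cover counting error only.

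The models formed a sharp peak in length that held no listed model. Their median length was 119 bases, and 56.7% of them (1279 models) measured 118 to 122 bases. The commonest exact length was 119 bases, with 505 models spread over 138 chromosomes, scaffolds and contigs. There were 329 models of 118 bases, 218 of 120, 134 of 121 and 93 of 122. None of these 1279 models was listed in either library, which allows a listed share of up to 0.235%. Models of these lengths have only 15 to 19 places for a stretch of 104 bases, the least that a fragment carried in these tables, so a 0 here does not measure absence of the RNA. The lengths on either side of the peak were empty too, with 0 of 27 models of 117 bases, 0 of 61 of 123, 0 of 38 of 124 and 0 of 26 of 125.

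**Figure D1:**
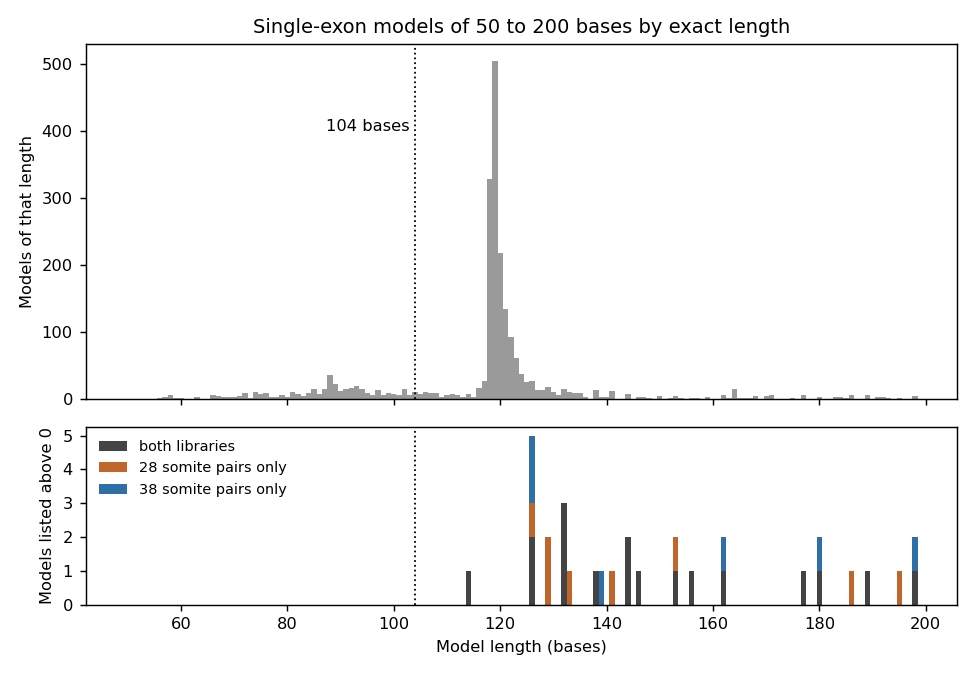
Number of single-exon models at each exact length (upper panel, bars) and number of them listed above 0 in both libraries, at 28 somite pairs only or at 38 only (lower panel, stacked bars), against length in bases. The peak of 505 models at 119 bases holds no listed model, and the shortest listed model is 114 bases long.

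Shorter models were empty without exception. All 404 models under 104 bases were listed at 0 in both libraries, among them 36 of 88 bases, 23 of 89 and 20 of 93. Such models have no room for a stretch of 104 bases, the least that a fragment carried, so their zeros say little. Of the 1852 models of at least 104 bases, 31 were listed (1.67%, 1.14 to 2.37). The shortest listed model had 114 bases, on chromosome 5 (80952457 to 80952570), and it was 1 of 8 models of that length. It was also the only listed model among the 1535 of 104 to 125 bases. The other 30 listed models were among the 317 of 126 to 200 bases (9.46%, exact 95% interval 6.48 to 13.2). The edge at 126 bases was set after seeing where listed models begin, so shares above it, here and below, are descriptions that the edge itself raises.

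Of the 127 exact lengths held by the models, 19 had a listed model. Lengths held by at least 8 models numbered 52, and 44 of these, with 1879 models, had none listed. At 126 bases 5 of 27 models were listed, and at 132 bases 3 of 16. At 129 bases 2 of 18 were listed, at 144 bases 2 of 8, and at 162 bases 2 of 7. At 164 bases, a length not divisible by 3, 0 of 15 models were listed, and 9 of the 15 lay in 1 run on chromosome 2. Of all models from 126 bases upwards with a length not divisible by 3, 2.26% were listed.

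Most listed models had a length divisible by 3, as a coding sequence has, a feature that the choice of models did not use. Of the listed models, 28 of 31 had such a length, while 664 of all 2256 did (29.4%). Over all 22232 transcripts the share was 86.1%, and among single-exon models of 201 to 500 bases it was 67.5%. The listed models were thus near the share over all transcripts, and the 2256 as a whole lay below it. Put the other way, 28 of 664 models divisible by 3 were listed (4.22%, exact 95% interval 2.82 to 6.04) and 3 of 1592 others (0.19%, 0.04 to 0.55). The shares also differed from 126 bases upwards, although lengths were not matched within that range. There, 27 of 184 models divisible by 3 were listed (14.7%, 9.90 to 20.6) and 3 of 133 others (2.26%, 0.47 to 6.45). Without the 27 models of 126 bases, itself a multiple of 3, the first count was 22 of 157. The 3 exceptions were a model of 133 bases on chromosome 2 (156389139 to 156389271), a slightly longer one on chromosome 3 (196121388 to 196121526) and a model of 146 bases on scaffold GL343220.1 (1048235 to 1048380). Models are not independent replicates of a condition, so these shares describe the 2 libraries and were not tested.

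Detection of spliced models of the same size was higher. Outside the linkage groups and the abundant contig, 135 spliced models had 50 to 200 bases, all 135 with a length divisible by 3. Of these, 26 were listed in either library (19.3%, 13.0 to 26.9), against 1.37% (0.94 to 1.94) of the single-exon models. From 126 bases upwards the shares were 21.0% (14.1 to 29.4) of 119 spliced models and 9.46% of the single-exon ones. The interval for spliced models overlapped that of single-exon models with a length divisible by 3 (14.7%, 9.90 to 20.6). Longer single-exon models were listed more often, 155 of 505 from 201 to 500 bases (30.7%) and 556 of 963 above 500 bases (57.7%).

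Near the upper limit of 200 bases the models were too few to tell a gradual change from a step. Of 17 models from 190 to 200 bases, 2 were listed in each library. Just inside the limit, a model of 198 bases on chromosome 1 (181799207 to 181799404) reached 37.4 FPKM at 28 somite pairs and 60.5 at 38. Of 12 models from 201 to 210 bases, 2 were likewise listed in each library. Just outside, a model of 201 bases on chromosome 1 (229679628 to 229679828) reached 50.8 and 32.9 FPKM. Below the lower limit of 50 bases there were 3 models, and none was listed.

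Tandem runs of small models held no listed model in either library. Neighbouring models at most 50 kb apart formed 47 clusters of at least 3, with 215 models, and 9 of these clusters, with 70 models, repeated 1 exact length at least 3 times. None of the 70 was listed at either stage, beside a share of 1.37% over all 2256 models. With so few models, a count of 0 is near that share. Of the 70, 36 are shorter than the stretch of 104 bases, so their zeros say little, and 0 of the other 34 allows a share of up to 8.82%. Copies of a repeated model may share sequence, and how reads that map to several places were treated is not given in the sources used here, so its part in these zeros was not tested.

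The largest run lay on scaffold GL343224.1 (2186677 to 2226168, 27 models). Its first 23 models were 17 of 88 bases, 5 of 89 and 1 of 91, between 2186677 and 2210424. They followed each other at a nearly constant step. Of 22 distances from start to start, 21 measured 1015 to 1030 bases, and the other one 2155 bases. The run ended in 4 models of 118 bases (2219128 to 2226168), spaced 1383 to 3467 bases apart. A second run of 88-base models, on scaffold GL343324.1 (659604 to 688163), held 6 of that length among 8 models at uneven distances of 805 to 13339 bases. These 2 scaffolds held 23 of the 36 models of 88 bases.

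The run on chromosome 2 (76506137 to 76545280) consisted of 9 models of exactly 164 bases and no other. Their starts were 1290 to 9207 bases apart. The remaining 6 models of 164 bases were scattered, with 4 on chromosome 1, 1 on chromosome 5 and 1 on scaffold GL343282.1, and all 15 were at 0 in both libraries. Of the other runs, 5 had 118 or 119 bases as their commonest length. The one with most models, on scaffold GL343404.1 (237768 to 257178), held 6 models of 119 bases and 1 of 120, spaced 2617 to 4246 bases apart. The last run held 4 models of 91 bases and 1 of 88 on chromosome 3 (200527389 to 200532112).

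**Figure D2:**
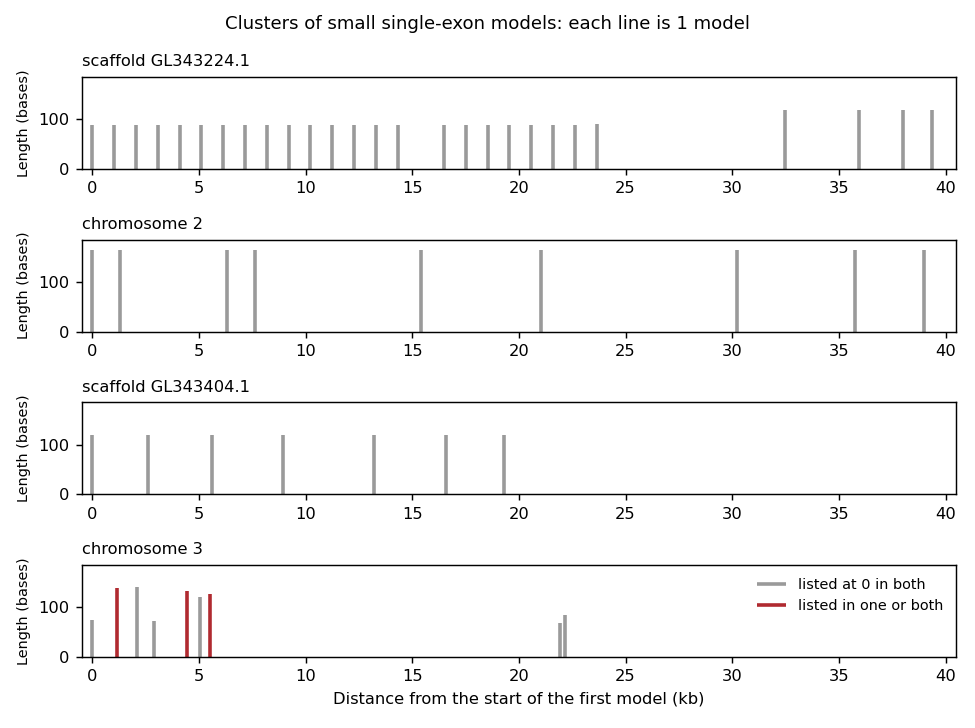
Clusters drawn to scale, with the distance from the first model in kb on the horizontal axis and model length in bases on the vertical axis; each line is 1 model. The runs on scaffold GL343224.1, chromosome 2 and scaffold GL343404.1 hold no listed model, while 3 of the 9 models of the chromosome 3 cluster, in red, were listed.

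Clusters of mixed lengths were empty too, apart from 3. Clustered models as a whole were not listed less often than others. In clusters 5 of 215 models were listed (2.33%, 0.76 to 5.34), and outside them 26 of 2041 (1.27%, 0.83 to 1.86), with overlapping intervals. A group of 8 models of 59 to 81 bases on chromosome 4 (71380323 to 71389354) had no listed member. A compact group of 6 models of 58 to 100 bases lay within 769 bases of scaffold GL343584.1 (108255 to 109023), with starts 104 to 144 bases apart, and was at 0 throughout. Another 6 models of 58 to 104 bases on scaffold GL344214.1 (22324 to 24681) were at 0 as well. No model of these groups was longer than the stretch of 104 bases, the least that a fragment carried, so their zeros say little.

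Most of the signal within clusters came from 1 cluster, on chromosome 3 (196120245 to 196142492), whose 9 models had 69 to 140 bases and no length in common. Its model of 132 bases (196124700 to 196124831, ENSACAG00000018248) had 82.3 FPKM at 28 somite pairs, from 36 fragments, and 22.4 FPKM at 38, from 9 fragments. Its model of 126 bases (196125747 to 196125872) had 20.4 FPKM at 28, from 10 fragments, and was listed at 0 at 38. A model nearer its start (196121388 to 196121526) was at 0 at 28 and had 24.7 FPKM at 38, from 10 fragments. The 3 listed models, within 4485 bases of each other, differed in which library held the larger value. For the latter 2 models this rests on 10 fragments against a listed 0. Set against 9 hidden fragments, the model of 126 bases was 1.03-fold higher at 28 (0.38 to 2.88). The model nearer the start was 1.19-fold higher at 38 (0.44 to 3.32), so both intervals held 1. The nearest gene outside the cluster, 2126 bases from the model nearer the start, had 65.7 FPKM at 28 and 57.0 at 38. Beyond the cluster, a model of 177 bases (196298673 to 196298849) had 8.62 and 11.3 FPKM. The other 2 clusters with signal had 1 listed member each, on chromosome 1 and on scaffold GL343193.1.

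Listed shares by place in the genome rested on few models. Chromosomes 1 to 6 held 1288 of the models, of which 21 were listed (1.63%, 1.01 to 2.48). Scaffolds and contigs held 968, of which 10 were listed (1.03%, 0.50 to 1.89), so the intervals overlapped. Chromosome 3 had most listed models, 8 of 217 (3.69%, 1.60 to 7.13), and 3 of the 8 lay in the cluster described above. Chromosome 6 had none of 115, which allows up to 2.61%.

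Listed models had a smaller median distance to other genes than unlisted ones. The median distance to the nearest gene that is not one of the 2256 was 11021 bases for the 31 listed models and 33422 bases for the 2098 unlisted models with a gene on the same sequence. That neighbour had an FPKM of at least 1 in either library for 27 of 31 listed models (87.1%) and for 1447 of the 2098 (69.0%). From 126 bases upwards the medians were 11426 and 21638 bases, and the shares with an expressed neighbour 86.7% and 65.0%. The closest of the listed models was one of 153 bases on scaffold GL343380.1 (902543 to 902695), 43 bases from a gene with 22.2 FPKM at 28 and 20.6 at 38. It had 23.5 FPKM at 28, from 13 fragments, and was listed at 0 at 38. The tables give no strand, and whether such signal belongs to the neighbour was not tested.

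A few listed models had high FPKM from few fragments. Among listed values the median was 39.8 FPKM from 23 fragments at 28 somite pairs and 36.5 FPKM from 14 fragments at 38. The lowest was 8.30 FPKM and the highest 1228. Fragment numbers were recovered from FPKM and effective length, which fell on whole fragments. The fewest behind a listed value were 10 at 28 and 9 at 38. A value listed at 0 is therefore taken here to hide up to 9 fragments in either library. This is an assumption, since at 38 a model with 9 fragments was itself listed. Of the listed values, 11 of 25 at 28 and 13 of 23 at 38 rested on fewer than 20 fragments.

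The short effective lengths enlarge FPKM in these models. Effective length, the length to which FPKM is scaled, was 9.01 to 109.8 bases in listed models. Models of the same length differed in it, from 20.2 to 43.4 bases among the 5 listed models of 126 bases. At 28 somite pairs, 10 fragments corresponded to 80.05 FPKM at the shortest effective length and to 6.63 FPKM at the longest. For models listed in both libraries it differed between libraries by at most 3.39%, so it moved the comparison between stages little.

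The highest value was that of a model of 132 bases on chromosome 3 (17916897 to 17917028, ENSACAG00000025804). Its values were 799 FPKM at 28 somite pairs and 1228 at 38, which rest on 292 and 422 fragments. By FPKM it ranked 57 and 20 among the 21085 genes, but by fragments it ranked 2074 at 38 among loci with a single transcript. Second was a model of 126 bases on chromosome 1 (11644897 to 11645022), at 679.8 and 789 FPKM (306 and 328 fragments). Next came a model of 189 bases on chromosome 4 (131135278 to 131135466, ENSACAG00000003491), at 475 and 660.2 FPKM, and the most fragments of all, 612 and 796. These 3 models alone passed 100 fragments. Together they held 1210 of 1719 fragments of the listed models at 28 (70.4%) and 1546 of 1996 at 38 (77.5%).

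The next values lay on chromosome 5. The model of 114 bases (80952457 to 80952570), the shortest listed, had 144 FPKM at 28 and 298 at 38, from only 18 and 35 fragments. A model of 138 bases (83042285 to 83042422) had 111 and 121 FPKM, from 45 fragments in each library. A model of 144 bases (24915345 to 24915488) had 60.7 and 106 FPKM, from 47 and 74 fragments. Of the 31 listed models, these 6 were the ones that reached 100 FPKM in a library.

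**Figure D3:**
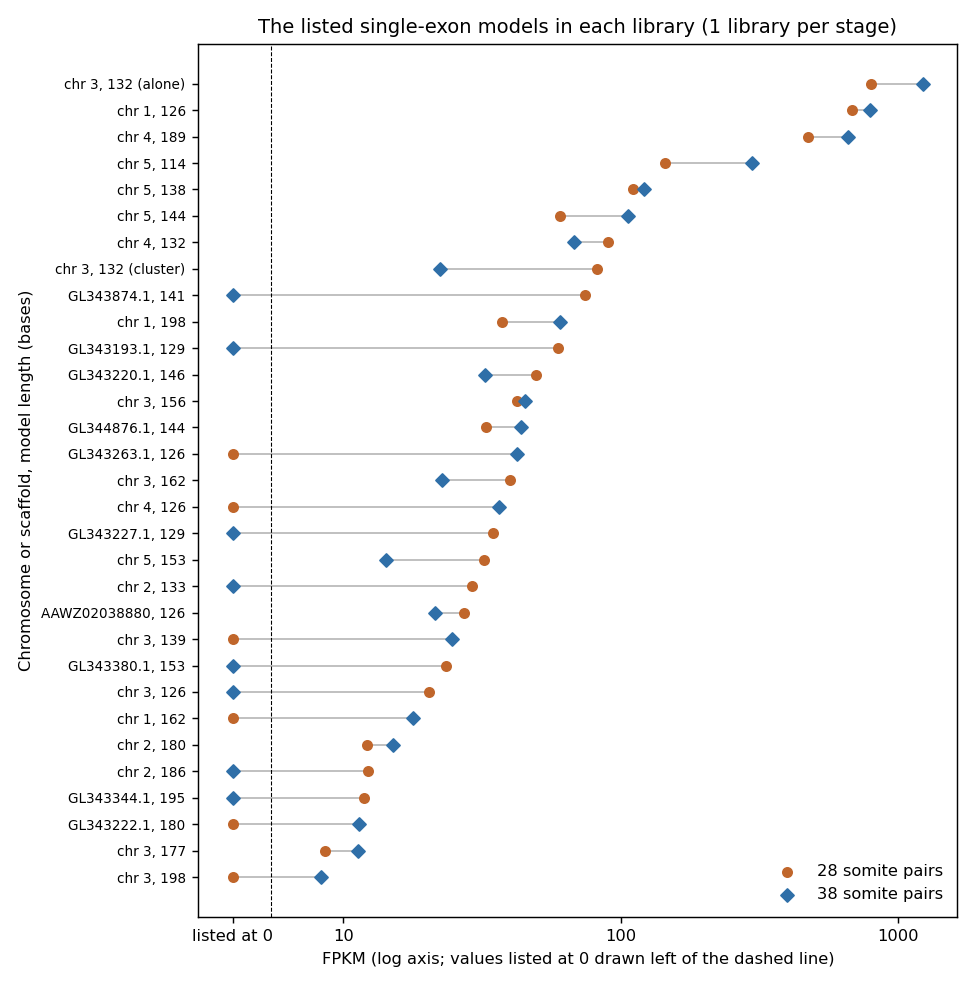
FPKM of the 31 listed models (log axis) at 28 somite pairs (circles) and 38 somite pairs (diamonds), 1 library each, ordered by the larger value; values listed at 0 are drawn left of the dashed line. The 14 models with a point left of the line were listed in 1 library, and the highest value among them was 74.2 FPKM.

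Models listed at one stage had low counts. The 8 listed only at 28 somite pairs had 10 to 30 fragments, and the 6 listed only at 38 had 10 to 14. The largest at 28, by FPKM and by fragments, was a model of 141 bases on scaffold GL343874.1 (201182 to 201322), with 74.2 FPKM from 30 fragments at 28 and 0 at 38. If 9 fragments were hidden behind that 0, it would be 3.10-fold higher at 28 (exact 95% counting interval 1.44 to 7.43). For the other 13 the fold set against 9 fragments was 1.03 to 1.76, and every interval held 1. Next came models of 129 bases on scaffold GL343193.1 (6671028 to 6671156), with 59.7 FPKM from 17 fragments at 28, and of 195 bases on scaffold GL343344.1 (136029 to 136223), with 11.9 FPKM from 16 fragments at 28. At 38 the most fragments, 14, lay in a model of 126 bases on chromosome 4 (90751557 to 90751682), with 36.5 FPKM. The highest FPKM at 38, 42.2 from 11 fragments, was that of a model of the same length on scaffold GL343263.1 (2010380 to 2010505).

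Listing at a single stage was more frequent among the models than among genes in general. Of the 31 listed models, 8 (25.8%) were listed only at 28 and 6 (19.4%) only at 38. Of the 12229 genes listed in either library, 7.48% were listed only at 28 and 8.66% only at 38. Such listing was not particular to these models. Of 155 listed single-exon models of 201 to 500 bases, 24 were listed only at 28 and 34 only at 38. Of 26 listed spliced models of 50 to 200 bases, 2 were listed only at 28 and 3 only at 38. These shares were not compared at equal fragment numbers.

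By size, 7 of the 31 models were at least 2-fold higher at 38 and 10 were at least 2-fold higher at 28, with 1 FPKM added to each value. These are 22.6% and 32.3% of the models, beside 8.58% and 9.20% of all 10783 genes that reached 1 FPKM in a library. Of these calls 14 were the models listed at one stage. Only 3 were listed in both libraries, the model of 114 bases on chromosome 5 (higher at 38) and, higher at 28, the model of 132 bases in the chromosome 3 cluster and a model of 153 bases on chromosome 5. The median log2 difference of the 31 models, 38 minus 28 somite pairs, was 0.12, and its quartiles were -2.76 and 0.74. Over all 10783 genes the median was -0.18 and the quartiles -0.55 and 0.23.

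Among the 17 models listed in both libraries, 11 had a larger value at 38 and 6 at 28, and the median log2 difference was 0.22. Fragment ratios per mapped fragment gave the same 11 and 6. So did ratios per fragment in listed transcripts, which raise every ratio by 1.20 times. With at least 10 fragments in both libraries, 5 of 16 models had an exact 95% counting interval above 1, beside 17.0% of 8811 such loci in the tables. One model had an interval below 1, beside 39.6% of these loci. Per fragment in listed transcripts, 6 of the 16 lay above 1 (beside 30.8% of loci) and 0 below (beside 23.9%). The width of an interval depends on the fragment number, and these shares were not compared at equal fragment numbers. These intervals hold no variation between embryos.

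Coverage varied among the 5 models with an interval above 1. The model of 114 bases on chromosome 5 was 2.09-fold higher at 38 (1.15 to 3.92) from 18 and 35 fragments, and the model of 144 bases there 1.69-fold (1.16 to 2.49). The model of 198 bases on chromosome 1 was 1.61-fold higher (1.05 to 2.50), from 38 and 57 fragments. The abundant model of 132 bases on chromosome 3 was 1.55-fold higher (1.33 to 1.81), and that of 189 bases on chromosome 4 1.40-fold (1.26 to 1.55). The third abundant model, of 126 bases on chromosome 1, had a ratio of 1.15 whose interval held 1 (0.98 to 1.35). It lay above 1 per fragment in listed transcripts (1.38, 1.18 to 1.62).

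In the other direction, the model of 153 bases on chromosome 5 (47837912 to 47838064) was at 32.3 FPKM at 28 and 14.3 at 38, from 29 and 12 fragments. It was 2.25-fold higher at 28 (1.11 to 4.84). Per fragment in listed transcripts, however, its interval held 1 (0.53 for 38 over 28, 0.25 to 1.08). The model of 132 bases in the chromosome 3 cluster, with 9 fragments at 38, was 3.73-fold higher at 28 (1.76 to 8.80). It stayed on that side with the other scaling (0.32 for 38 over 28, 0.14 to 0.68). A model of 162 bases on chromosome 3 (142513875 to 142514036) was at 39.8 and 22.7 FPKM and was 1.79-fold higher at 28, with an interval that held 1 (0.85 to 3.94).

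The intervals of the remaining models held 1. The model of 146 bases on scaffold GL343220.1 was at 49.4 FPKM at 28 and 32.6 at 38, 1.53-fold higher at 28 (0.75 to 3.22). A model of 132 bases on chromosome 4 (57088782 to 57088913) was at 89.9 and 67.8 FPKM, 1.32-fold higher at 28 (0.80 to 2.20). A model of 126 bases on contig AAWZ02038880 (2185 to 2310) was at 27.1 and 21.4 FPKM, 1.24-fold higher at 28 (0.55 to 2.88). The widest of these intervals rest on 12 to 23 fragments a library. A model of 156 bases on chromosome 3 (187782135 to 187782290) had 29 fragments in each library, with 42.2 and 45.2 FPKM.

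**Figure D4:**
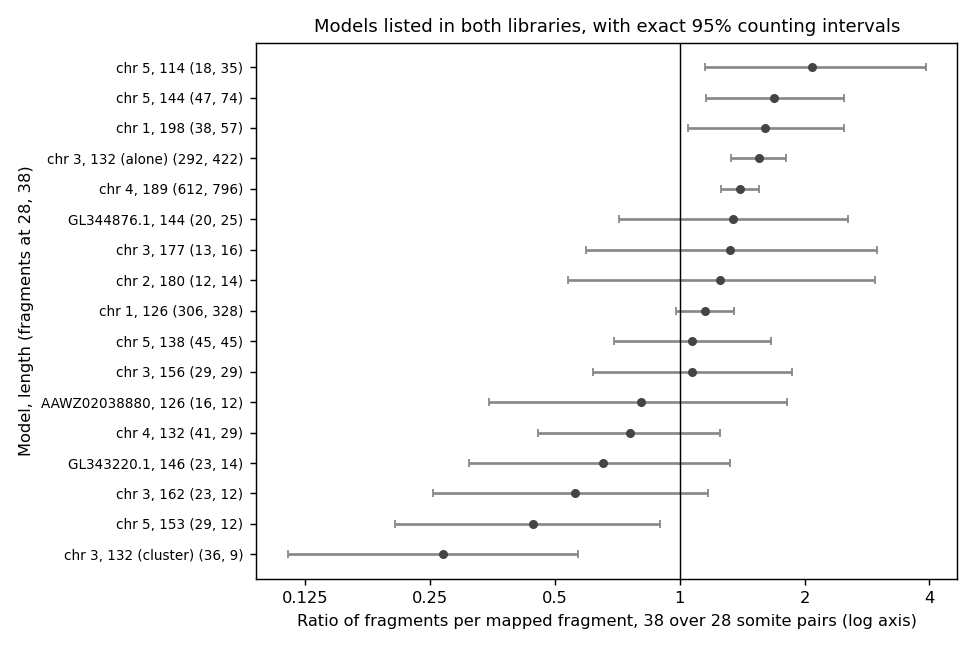
Ratio of fragments per mapped fragment, 38 over 28 somite pairs (log axis), for the 17 models listed in both libraries; points are ratios, bars exact 95% counting intervals, and the numbers in brackets fragments at 28 and 38. The 5 intervals above 1 run down from the model of 114 bases on chromosome 5 (2.09), and the lowest ratio is that of the model of 132 bases in the chromosome 3 cluster.

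The 31 models together took 0.012% of the mapped total at 28 somite pairs and 0.015% at 38. The ratio of these shares, 38 over 28, was 1.25 (1.17 to 1.33). It rested on the 3 abundant models, whose sum had a ratio of 1.37 (1.27 to 1.48). Without them the other 28 models had 509 and 450 fragments and a ratio of 0.95 (0.83 to 1.08). Per fragment in listed transcripts that ratio was 1.14 (1.0008 to 1.295), so its direction depended on the scaling.

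Fragments in these models carried a constant amount of read sequence. The deposited coverage signal, divided by FPKM and by the mapped total, gives the read bases that each fragment contributed. Across all loci with a single transcript it ran from 104 to 208 bases, the second being 2 times the first. In the listed models it was 104 within 0.01 bases for 24 of 25 at 28 somite pairs and for 22 of 23 at 38. The exception was the model of 189 bases on chromosome 4, with 104.3 and 104.4. Its excess over 104 amounts to 2.0 further stretches of 104 bases among 612 fragments and 3.0 among 796. The read length is not given in the sources used here.

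Longer models carried more. Among single-exon models of 201 to 300 bases, 26.3% of those listed at 28 somite pairs exceeded 104 bases per fragment, as did 85.5% at 301 to 500 bases and 99.3% above 1000. At 38 somite pairs these shares were 21.9%, 77.8% and 99.4%. Among spliced models of 104 to 200 bases, 8 of 23 listed at 28 and 3 of 24 at 38 exceeded it. A model under 104 bases has no room for a stretch of 104, and all 404 such models were at 0.

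**Figure D5:**
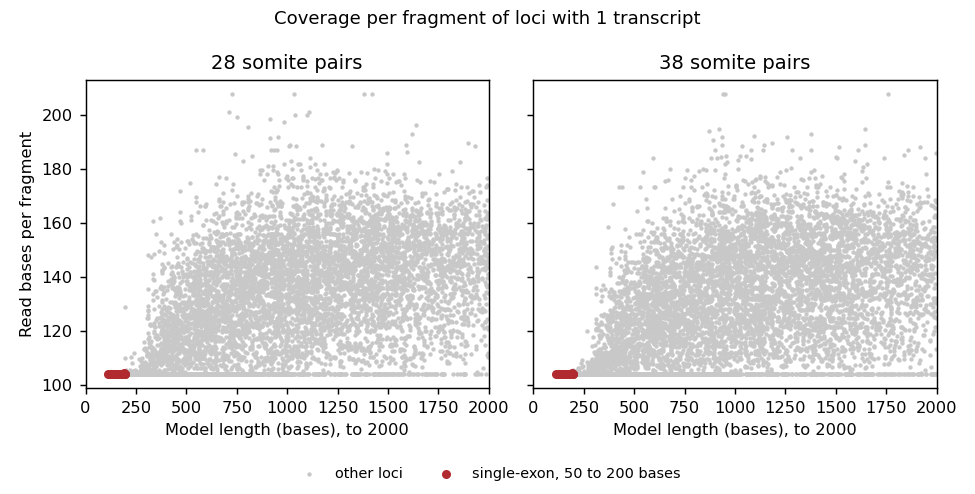
Read bases per fragment against model length for loci with a single transcript, at 28 (left) and 38 somite pairs (right); each point is 1 locus, to 2000 bases, with the single-exon models of 50 to 200 bases in red. The red points lie on the floor at 104 bases, and other loci spread upward to 208 with length.

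The effective length column set apart a further group of models listed at 0. In every listed model the effective length was shorter than the annotated length. Among the 2225 models at 0 in both libraries the effective length equalled the full length in all but 92 (4.13%). It was shortened in both libraries for 32 of the 92, only at 28 for 30 and only at 38 for 30. The shortest of the 92 had 106 bases. In 9 of them, of 106 to 111 bases, the shortened value was a whole number, and in all 9 it was the length minus 103, the number of places a stretch of 104 bases can take. Of models listed only at 28, 7 of 8 had a shortened effective length at 38, and of those listed only at 38, 5 of 6 had one at 28. What sets this value where FPKM is 0 is not given in the sources used here. The same shares over all transcripts at 0 were not computed, so the group may not be particular to these models.

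Lengths in this group overlapped those of the listed models in part. None of the 404 models under 104 bases belonged to it, nor any of the 70 in tandem runs, the 36 of 88 bases or the 15 of 164 bases. Of the 1279 models of 118 to 122 bases, 13 did (1.02%). At 119 bases these were 5 of 505, each at 38 somite pairs only, and at 121 bases 6 of 134, all 6 of them at 28. From 104 to 125 bases it held 29 models, where 1 model was listed. From 126 bases upwards, 63 of 287 unlisted models did (22.0%). Of the 92 models, 63 had a length divisible by 3. They were 9.91% of the 636 unlisted models with such a length, beside 1.83% of the 1589 others, with lengths not matched. In the chromosome 3 cluster, 2 of the 6 unlisted models belonged to the group, those of 121 and 140 bases.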

How the data were processed

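The series description states that TopHat aligned the reads, untrimmed, to AnoCar2.0. The submitters' processing notes name Cufflinks without a version. The deposited values are FPKM per gene and transcript, and per the file headers the transcript tables add coverage signal, fractions of the locus (not used), length and effective length. Samples were grouped by the labelled somite number, 1 library each.

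Total mapped fragments were found as the number that turns FPKM times effective length into whole fragments (within 0.02 for 93.1% of 4573 loci under 100 fragments at 28 somite pairs and 92.6% of 5069 at 38). This assumes that FPKM were scaled to all mapped fragments. Ratios have exact 95% intervals, and a share of 0 allows up to 3 of the total. This limit, like the intervals on shares, treats the models as independent. All percentages of genes were computed over the whole tables. The models and lists were chosen with earlier results of these data known. The rule for named models took the 12 of highest FPKM, those over 100 fragments, the 5 largest folds each way and every tandem run. Others named here (extremes, exceptions and edge cases) were chosen after their values were seen. Alternatives changed thresholds, pseudocounts, scalings, length limits and cluster gaps. Recovery of the mapped total and the intervals on fragment ratios were tested on simulated data. The other calculations were not tested in this way. No sequence was printed, since no genome was used here. The software was matplotlib 3.10.9, scipy 1.17.1, pandas 2.3.3 and numpy 2.4.6 under Python 3.11.15.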

Additional observations from a re-analysis of the deposited data

Results flagged for a closer look

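Single-exon models of the same size that share a locus with another gene or transcript were not described as a group above. The shares over all transcripts include them, and their genes could serve as the nearest gene. Of these 757 models, 3 were listed. Each had more than the 9 fragments that a listed 0 is taken to hide, 1 of them by a single fragment. Since 9 was read from the fewest fragments behind a listed value, passing it adds no support. A model of 194 bases on chromosome 1 (63301506 to 63301699) had 18 fragments at 28 somite pairs and was at 0 at 38. A model of 181 bases on chromosome 1 (64214370 to 64214550) had 18 fragments at 28 and 22 at 38. A model of 179 bases on scaffold GL343321.1 (116019 to 116197) had 10 fragments at 38 and was at 0 at 28. Outlying samples and differing groups could not be sought with 1 library per stage.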

How the results depend on the processing

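No paired analysis was possible because only 2 libraries were made, 1 per stage. Of 66 alternatives, 46 left the result within its range. Several of the 46 could not have changed it. The lowest listed value was 8.30 FPKM, so a limit of 1 or 5 FPKM in a library kept the same models. Leaving out tandem runs removed no listed model. From 50 to 150 bases, 15 models were listed at 28 somite pairs, 13 at 38 and 10 in both, and 4 were higher at 38 and 6 at 28. From 50 to 250 bases, 44 were listed at 28, 28 in both, and 19 were higher at 28. The median log2 difference was negative with both limits (-0.10 and -0.43), so its sign depended on the length limits. The binomial order of the 31 values gave -1.12 to 0.62 around the reported median. That range treats models as replicates, which they are not, and 14 of the values rest on a listed 0. It does not measure uncertainty about stage. Lengths not divisible by 3 gave 2 models listed at 28, 2 at 38 and 1 in both. With FPKM of at least 1 in both libraries, 1 was higher at 38 and 2 at 28, and with each listed 0 taken as 9 fragments 1 and 3, since most calls rested on a 0. With neighbours at most 10 kb apart, 1 of 25 clusters had a listed model, and at most 100 kb apart 5 of 67, while 0 of 7 and 0 of 10 tandem runs did. Alternatives on the summed fragment ratio, and on exact lengths at an FPKM of at least 1 or 10, were added after the data were seen. Per mapped fragment this ratio turned to 0.95 without the 3 models of most fragments. Per fragment in listed transcripts it was 1.495 with them and 1.14 without. Equal sums multiplied values at 38 by 1.10 and moved all genes by 0.14 on the log2 scale, and an equal upper quartile by 0.23. A listed 0 is taken to hide up to 9 fragments, and how far depth limits the shares was not tested.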
